A study of Homo sapiens with 3 samples.

Results

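The RNA-sequencing library of METTL3-knockdown MIAPaCa-2 cells was compared directly with the library of control cells exposed to a PLK1 inhibitor, gene by gene, without the untreated control entering the difference. The comparison covered 10782 of the 14949 genes in the table, namely those whose normalized count averaged at least 200 over the 3 libraries. MIAPaCa-2 is an established human pancreatic cancer cell line. The control (sh-CTL) carried a control short hairpin and received no treatment. The knockdown (sh-METTL3) carried a short hairpin against METTL3 and also received no treatment. The inhibitor library (sh-CTL + PLK1i) came from cells with the control hairpin after 24 h in 80 nM NMS-P937, a selective PLK1 inhibitor. The compared libraries therefore differed in both the hairpin and the drug, and a knockdown line was set against a short exposure. The knockdown cells were 1 line that the study received as a gift, and each group was represented by 1 library, so no difference below has a replicate check, a standard error or a p-value. The filter fell between DTWD2, which averaged 200.01 and was kept, and LINC01002, which averaged 199.7 and was not.

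METTL3 is the catalytic subunit of the complex that writes N6-methyladenosine (m6A) on messenger RNA, a mark that reader proteins use to set the stability, splicing and translation of transcripts. PLK1 is a serine/threonine kinase that drives mitotic entry, spindle assembly and chromosome segregation, and cells whose PLK1 is blocked accumulate in mitosis. The study examined METTL3 and PLK1 together in pancreatic cancer cells. The direct comparison asks how far the transcriptome of cells with a lowered METTL3 transcript departs from that of cells exposed to a PLK1 inhibitor.

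A level is a normalized count, which is the deposited value with its log2 undone and the offset of 4 removed. A difference is log2(normalized count + 1) in sh-METTL3 minus the same in sh-CTL + PLK1i, so negative values are lower in the knockdown. A gene was called higher or lower at a difference of at least 1 in size, a 2-fold change. Each interval given after a difference is the exact 95% Clopper-Pearson interval of a proportion, converted to the read ratio of both libraries, and covers counting error alone. Levels are given in the order control, knockdown, inhibitor library unless stated otherwise. The libraries held 37449259, 46944920 and 47727541 reads over the genes of the table, in that order. Markers of an epithelial cell were present only in part. The keratins KRT8, KRT18 and KRT19 and the claudin CLDN4 were measured in every library, at 96333, 51258, 3919 and 729 normalized counts in sh-CTL, whereas 6 of the 10 epithelial markers, CDH1 and EPCAM among them, had no row among the genes analysed. Of the 4 mesenchymal markers, CDH2 and FN1 had no row. The filament gene VIM stood at 244755 in the control, 185206 in the knockdown and 246423 in the inhibitor library. ZEB1 stood at 2927, 3478 and 3838 in the same order, so in the knockdown VIM was below the control and ZEB1 above it. None of the 4 endothelial, 5 acinar or 4 endocrine markers had a row either, and among the 6 leukocyte markers 3 had a row. Of these, CD68, a lysosomal protein abundant in macrophages, stood at 1755, 3243 and 2647 (control, knockdown, inhibitor library), LYZ at 113, 153 and 110, and CD14 at 43.1, 39.9 and 15.7. In bulk RNA, fewer cells of a kind and less transcript per cell cannot be told apart.

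The gene that the hairpin targets was examined first. METTL3 (ENSG00000165819; GRCh37 chromosome 14, 21966277 to 21979484, minus strand) stood at 3939 in the control, 1651 in the knockdown and 3888 in the inhibitor library. The knockdown library was the low one and the other pair lay together. The direct difference was -1.24 (interval -1.32 to -1.16), which left 42.5% of the METTL3 transcript of the inhibitor library. Since the METTL3 span overlaps TOX4 on the opposite strand, and strand use in counting was not given in the sources used here, some reads of that gene may be included. PLK1 (ENSG00000166851; GRCh37 chromosome 16, 23688977 to 23701688, plus strand) stood at 8058, 5226 and 8515 in the same order. Its direct difference of -0.70 (-0.75 to -0.66) was the lowest of the 40 genes in the list of mitotic kinases and G2/M regulators and did not reach 2-fold. The drug acts on the PLK1 protein, and the PLK1 transcript in that library was 0.08 above sh-CTL.

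Most genes were close. Of the 10782 genes, 9404 (87.2%) lay within 0.5 of each other on the log2 scale, the median difference was -0.01, and the SD of the differences across genes was 0.44. In sh-METTL3, 127 genes were called higher (1.18% of the genes compared) and 158 were called lower (1.47%). At a size of at least 0.5, the counts were 652 higher (6.05%) and 726 lower (6.73%). At a size of at least 2 they were 19 and 36, and at a size of at least 3 they were 6 and 15. Among the genes compared, the lower side thus held more of the extreme genes at each of these sizes. The filter did not treat these sides alike. A gene low only in the knockdown kept both other libraries in its mean, whereas one high only there had to pass mostly on that library. With a mean of at least 50 required, slightly more genes were still called lower than higher in sh-METTL3. With no filter, more were called higher than lower. The part of the filter in this balance was not tested. The whole counting interval lay past 2-fold for 95 of the higher and 109 of the lower genes. The called genes were of lower abundance, with a median level of 538 against 1675 for all genes compared. Of the called genes, 256 are annotated as protein coding, and 10 of the lower and 11 of the higher genes are long noncoding RNAs. Just inside the limit stood AHNAK2, a large scaffold protein at 13387 in the knockdown against 6687 in the inhibitor library. Just outside it stood the thrombin receptor family gene F2RL2, at 373 against 744, and the pseudogene SMG1P1, at 577 against 1149.

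**Figure D1:**
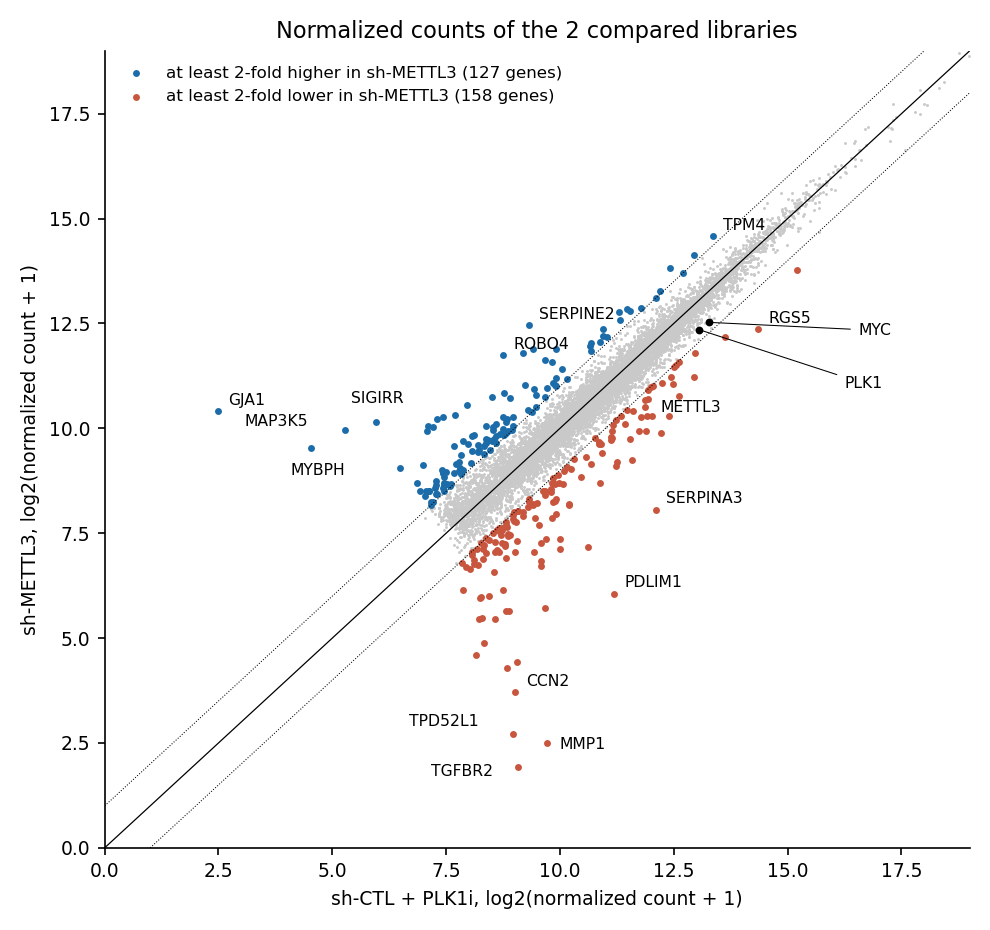
Each point is 1 of the 10782 genes, with log2(normalized count + 1) in sh-CTL + PLK1i on the x axis and in sh-METTL3 on the y axis; the solid line marks equal levels, the dotted lines 2-fold differences, and PLK1 and MYC are drawn in black. Blue marks the 127 genes called higher and red the 158 called lower in sh-METTL3, and the points farthest from the line are GJA1 above it and MMP1, TGFBR2 and TPD52L1 below it.

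The genes lowest in sh-METTL3 relative to the inhibitor library were led by an extracellular protease, a growth factor receptor and secreted or cytoskeletal proteins. MMP1 (ENSG00000196611; GRCh37 chromosome 11, 102660132 to 102668891, minus strand), the interstitial collagenase that cleaves fibrillar collagen, stood at 351 in the control, 4.63 in the knockdown and 841 in the inhibitor library. These levels rest on 301, 5 and 914 reads. The libraries lay on opposite sides of the control, the knockdown far below it and the inhibitor library above it, and the direct difference was -7.22 (-9.13 to -6.28). TGFBR2 (ENSG00000163513; GRCh37 chromosome 3, 30648093 to 30735634, plus strand), the ligand-binding receptor of TGF-beta, had 479, 3 and 587 reads. At 559, 2.78 and 540 normalized counts, its control and inhibitor levels lay together and only the knockdown was low. The difference was -7.16, and the counting interval of the ratio, -9.88 to -6.05, was wide because it rests on 3 reads. TPD52L1, a member of the tumour protein D52 family, had the same arrangement, with 503, 5.56 and 500 normalized counts and a difference of -6.25 (-7.94 to -5.36).

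CCN2 (ENSG00000118523; GRCh37 chromosome 6, 132269316 to 132272512, minus strand), the matricellular connective tissue growth factor, stood at 408 in the control, 12.1 in the knockdown and 518 in the inhibitor library. The cytoskeletal adaptor PDLIM1 was at 2059, 65.8 and 2335. The differences were -5.31 (-6.35 to -4.64) for CCN2 and -5.13 for PDLIM1, and for both genes the inhibitor library stood slightly above the control. SNAI2, a zinc finger repressor of epithelial genes, had 337, 18.5 and 454 normalized counts and a difference of -4.54 (-5.34 to -3.97). The ephrin receptor EPHA3 had 722, 20.4 and 534, a difference of -4.64. SERPINA3, a secreted protease inhibitor that was the most abundant of the 15 lowest genes, had 5257, 266 and 4384, a difference of -4.04 (-4.22 to -3.87). For EPHA3 and SERPINA3 the inhibitor library lay below the control, on the knockdown's side, and the knockdown lay much further from it.

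The rest of the 15 lowest genes with a symbol were MYH15, ELOVL6, MAP1B, HAPLN1, MLIP, COL3A1 and GRIP2, with differences from -3.95 to -2.88. ELOVL6 lengthens fatty acid chains and stood at 275, 28.7 and 323. MAP1B binds microtubules and stood at 1455, 143 and 1557. HAPLN1 links hyaluronan to proteoglycans and stood at 689, 49.1 and 471. The fibrillar collagen gene COL3A1 stood at 615 in the control, 42.6 in the knockdown and 378 in the inhibitor library. COL3A1 is also a fibroblast marker. Among the 8 fibroblast markers, 4 had a row, of which COL1A1 was at 39.6, 5.56 and 33.1 and COL1A2 at 51425, 40969 and 40961. ACTA2, the other marker with a row, stood at 84.0, 98.3 and 70.9, with the knockdown highest. Their part in the COL3A1 difference was not tested.

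**Figure D2:**
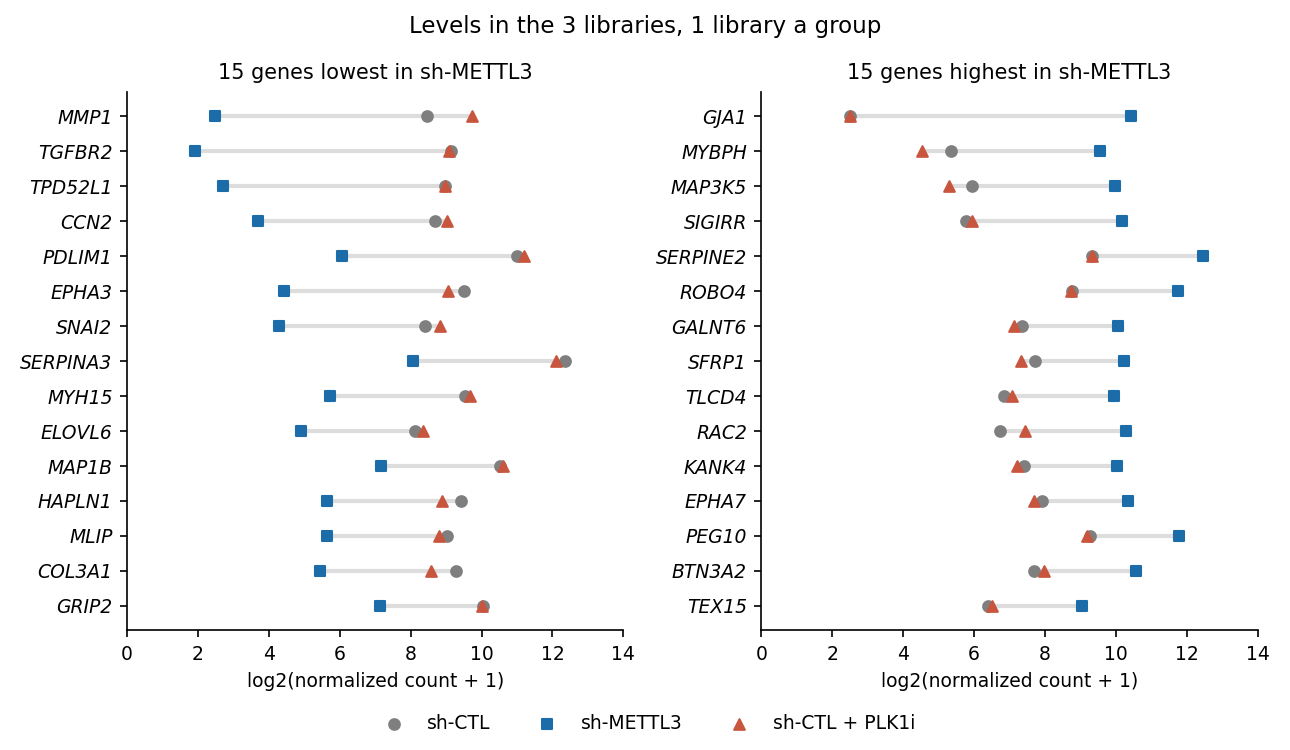
The 15 lowest (left) and 15 highest (right) named genes of the direct comparison, with log2(normalized count + 1) on the x axis and 1 marker for each library. In 29 of the 30 genes the circle (sh-CTL) and the triangle (sh-CTL + PLK1i) lie within 1 log2 unit of each other while the square (sh-METTL3) stands alone; MMP1 is the exception, with sh-CTL + PLK1i above sh-CTL by 1.26.

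The genes highest in sh-METTL3 relative to the inhibitor library were led by a gap junction gene. GJA1 (ENSG00000152661; GRCh37 chromosome 6, 121756741 to 121770873, plus strand), which encodes connexin 43, the channel protein of gap junctions, had 4 reads in the control, 1470 in the knockdown and 5 in the inhibitor library. At 4.66, 1363 and 4.60 normalized counts it was near its lower limit in both libraries with the control hairpin, and the difference was 7.93 (6.98 to 9.83). MYBPH, a myosin-binding protein of muscle, stood at 39.6, 744 and 22.1, a difference of 5.01 (4.49 to 5.72). MAP3K5, the stress kinase ASK1 upstream of JNK and p38, stood at 60.6, 996 and 37.7, a difference of 4.69 (4.27 to 5.21). For MYBPH and MAP3K5 the inhibitor library lay below the control while the knockdown lay far above it. The control and inhibitor levels rest on few reads, 34 and 24 for MYBPH and 52 and 41 for MAP3K5. The counting interval of the inhibitor library against the control was -1.66 to -0.05 for MYBPH and -1.31 to -0.07 for MAP3K5.

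SIGIRR, a receptor-family protein that dampens interleukin-1 and Toll-like receptor signalling, stood at 53.6 in the control, 1141 in the knockdown and 60.8 in the inhibitor library, a difference of 4.21 (3.87 to 4.61). SERPINE2, a secreted inhibitor of thrombin and plasminogen activators, was the most abundant of the 15 highest genes, at 642, 5664 and 634 and a difference of 3.16 (3.04 to 3.27). The guidance receptor ROBO4 stood at 435, 3429 and 427, with an interval of the difference from 2.87 to 3.15. For these genes the control and inhibitor libraries lay together. The next were GALNT6, SFRP1, TLCD4, RAC2, KANK4, EPHA7, PEG10, BTN3A2 and TEX15, with differences from 2.94 down to 2.56. SFRP1, a secreted antagonist of WNT ligands, stood at 209, 1194 and 157. The small GTPase RAC2 was above the control in both libraries, at 105, 1236 and 170. PEG10, an imprinted gene derived from a retrotransposon, stood at 619, 3527 and 584.

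Several of these genes share their span with another listed gene, and their reads are less certain. On the same strand these are SERPINA3, which overlaps ENSG00000273259, and TLCD4, which overlaps the read-through gene TLCD4-RWDD3. On the opposite strand they are TPD52L1, MAP1B, GRIP2, PEG10 and GALNT6. BTN3A2 has near-identical paralogs between which reads can be split.

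Among abundant genes the differences were smaller. Of the 4769 genes with a level of at least 2000, 19 were called higher and 30 lower, and the SD of their differences was 0.30. Among the most abundant genes on the lower side was RGS5, a regulator of G-protein signalling, at 21627, 5297 and 20923, a difference of -1.98 (-2.02 to -1.94). The endosomal exchanger SLC9A7 (-1.72) and the protease PRSS23 (-1.17) were also among them. RGS5 shares its span with a further gene of that symbol and SLC9A7 with the pseudogene PGAM1P7, so their reads are less certain. On the higher side the most abundant were the tropomyosin TPM4 at 8602, 24550 and 10511, a difference of 1.22 (1.19 to 1.26), and ITPRID2 at 6900, 17965 and 7916, a difference of 1.18. The T cell factor TCF7, a transcription factor of the WNT pathway, stood at 6236, 14477 and 5444, a difference of 1.41 (1.37 to 1.45). AHNAK2, at 9783, 13387 and 6687, and DPYSL2 (1.08), a regulator of microtubules in neurons, completed the 5.

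The sh-CTL library, which does not enter the difference, was then placed beside each called gene. In 249 of the 285 called genes the control lay nearer to sh-CTL + PLK1i, and in 36 it lay nearer to sh-METTL3. Against the control alone, 234 genes were 2-fold away in sh-METTL3 (2.17% of the genes compared) and 26 in sh-CTL + PLK1i (0.241%), and the SD of the differences was 0.41 and 0.23. These comparisons share the control library. The inhibitor library was within 0.5 of the control for 216 of the 285 called genes, and the knockdown library for 20. The direct differences were thus mostly distances of the knockdown from a level that the control and the inhibitor library held in common.

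The 36 genes with the control nearer to sh-METTL3 were the exception, with 23 lower and 13 higher in the knockdown. LUCAT1, a long noncoding RNA, stood at 149 in the control, 179 in the knockdown and 460 in the inhibitor library, a difference of -1.36. The histone gene H2BC12 stood at 381, 320 and 957, a difference of -1.58 (-1.76 to -1.40), though its reads can be split with near-identical histone genes. GEM, a GTPase of the RGK family, stood at 222, 159 and 531, a difference of -1.73. In these genes it was the inhibitor library that stood apart from the other pair, on the high side. NR1D1, a nuclear receptor of the circadian clock, likewise stood highest in the inhibitor library, at 742, 571 and 1648. LUCAT1, GEM and NR1D1 were chosen after their values were seen.

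**Figure D3:**
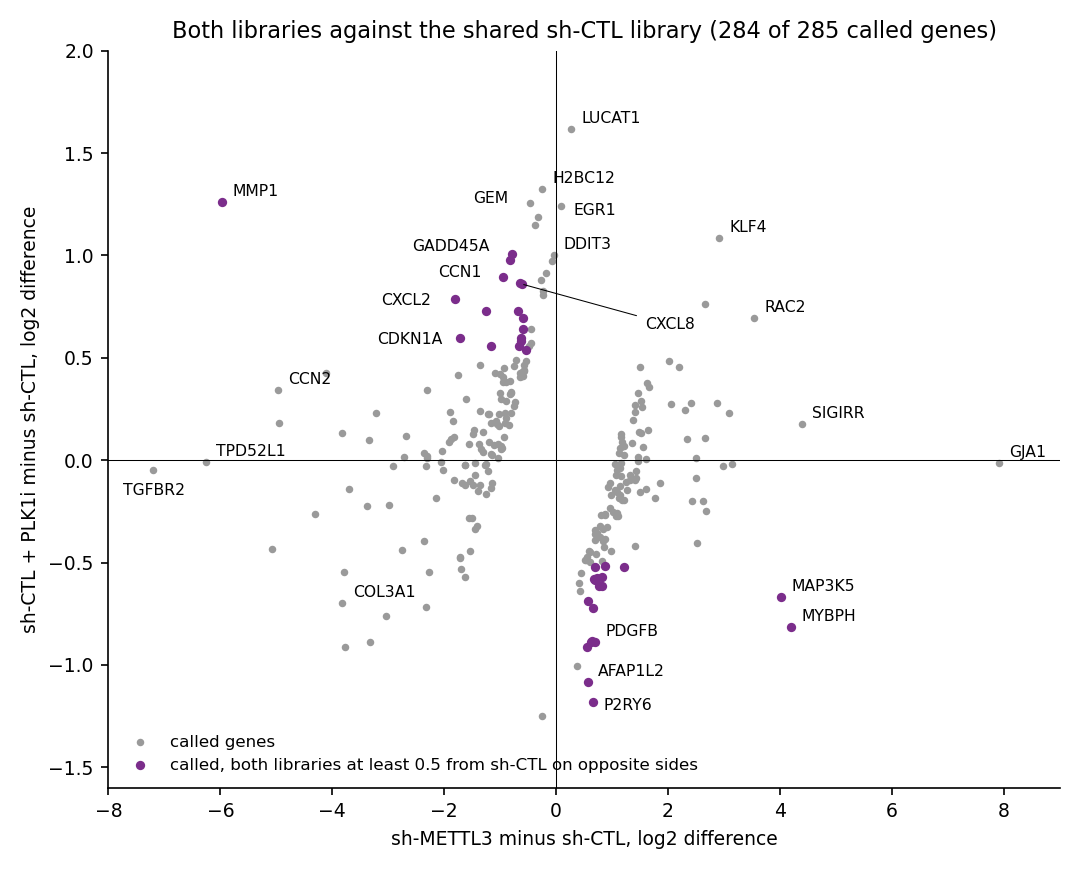
For 284 of the 285 called genes, the log2 difference of sh-METTL3 from sh-CTL is on the x axis and that of sh-CTL + PLK1i from sh-CTL on the y axis; 1 gene with 0 reads in sh-CTL is left out, and since both axes use the same control library they are not independent. The points spread from -7.21 to 7.91 along x and stay between -1.25 and 1.62 along y, and the purple points are the genes on opposite sides of the control.

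In 36 genes both libraries lay at least 0.5 from the control on opposite sides, 17 with the knockdown lower and 19 with the knockdown higher. Besides MMP1, the lower group held CXCL2, a neutrophil chemokine, at 247 in the control, 69.5 in the knockdown and 427 in the inhibitor library. CDKN1A, the cyclin-dependent kinase inhibitor p21, stood at 506, 154 and 766. LINC-PINT, a long noncoding RNA induced by p53, stood at 225, 93.6 and 374, and CCN1, a matricellular relative of CCN2, at 3363, 1738 and 6246. Their direct differences were -2.60 for CXCL2, -2.31 for CDKN1A, -1.99 for LINC-PINT and -1.84 for CCN1. GADD45A, a stress-induced growth arrest gene, stood at 1515, 853 and 2987 (-1.81). The neutrophil chemokine CXCL8 stood at 1935, 1232 and 3520 (-1.51).

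On the higher side of this group, MYBPH and MAP3K5 came first, on the few control and inhibitor reads given above. They were followed by P2RY6, a receptor for extracellular nucleotides, at 527 in the control, 831 in the knockdown and 232 in the inhibitor library. SNORC, a cartilage proteoglycan, stood at 398, 919 and 277 and overlaps GIGYF2 on its strand. AFAP1L2, an adaptor that binds SRC, stood at 534, 792 and 251. PDGFB, a chain of platelet-derived growth factor, stood at 224, 365 and 121. The differences were 1.84 for P2RY6, 1.73 for SNORC, 1.65 for AFAP1L2 and 1.59 for PDGFB. The control lay nearer to the knockdown for P2RY6, AFAP1L2 and PDGFB and nearer to the inhibitor library for SNORC.

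Genes that respond within minutes to hours to growth factors and stress were, as a list, lower in the knockdown than in the inhibitor library. Of 37 immediate early and AP-1 genes, 30 were compared, and 22 were lower and 8 higher in sh-METTL3. Their median difference was -0.42, against -0.01 over all genes. Against the shared control, the median of the list was -0.03 for the knockdown and 0.40 for the inhibitor library. Above the control were 13 of the 30 genes in the knockdown and 26 in the inhibitor library. The list median thus lay mostly in a higher inhibitor library. At least 0.5 lower were 13 of the 30 (43.3%), beside 6.73% of all genes, and 6 were called lower and 1 higher, beside 1.47% and 1.18%. Beside CCN2, CCN1 and GADD45A, these were IER3, EGR1 and DUSP1. EGR1, a zinc finger transcription factor, stood at 2045, 2170 and 4831 (-1.15). DUSP1, a phosphatase that switches off MAP kinases, stood at 733, 536 and 1143 (-1.09). IER3 stood at 880, 520 and 1210 (-1.22). EGR1 was about level in the control and the knockdown, while DUSP1 and IER3 lay on either side of the control.

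The AP-1 subunits themselves differed less. JUN stood at 3527 in the control, 4462 in the knockdown and 6755 in the inhibitor library (-0.60), FOS at 285, 450 and 587 (-0.38), FOSL1 at 7198, 9190 and 11357 (-0.31) and JUNB at 813, 599 and 1063 (-0.83). JUN, FOS and FOSL1 were above the control in both libraries, and JUNB was below it in the knockdown and above it with the inhibitor. MYC, the transcription factor that drives growth genes, stood at 6971, 5897 and 9847, a difference of -0.74 (-0.78 to -0.69). KLF4, a zinc finger factor of epithelial and stem cells, went against the list, at 226, 1700 and 481 and a difference of 1.82 (1.68 to 1.97). Both libraries were above the control for KLF4, the knockdown by 2.90 and the inhibitor library by 1.08. The next highest was GADD45B, at 781, 828 and 663 (0.32).

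NF-kB targets and inflammatory mediators gave a like list. Of 25 listed genes, 16 had a row and 14 were compared. The median difference was -0.56, 7 of the 14 (50%) were at least 0.5 lower in sh-METTL3, and 4 were called lower, beside 6.73% and 1.47% of all genes. These 4 were CXCL2, CXCL8, RELB and BIRC3. RELB, a subunit of the noncanonical NF-kB pathway, stood at 229, 195 and 406 (-1.06). BIRC3, an inhibitor of apoptosis that NF-kB induces, stood at 1762, 1257 and 2596 (-1.05). NFKB2, the partner of RELB, stood at 961, 769 and 1409 (-0.87), and the inhibitor protein gene NFKBIE at 254, 219 and 354 (-0.69). The chemokine CXCL1 (0.12) and the mitochondrial dismutase SOD2 (0.05), which are also NF-kB targets, were about level. Against the shared control, the median of the list was -0.22 for the knockdown and 0.50 for the inhibitor library, so the direct difference was made of both.

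**Figure D4:**
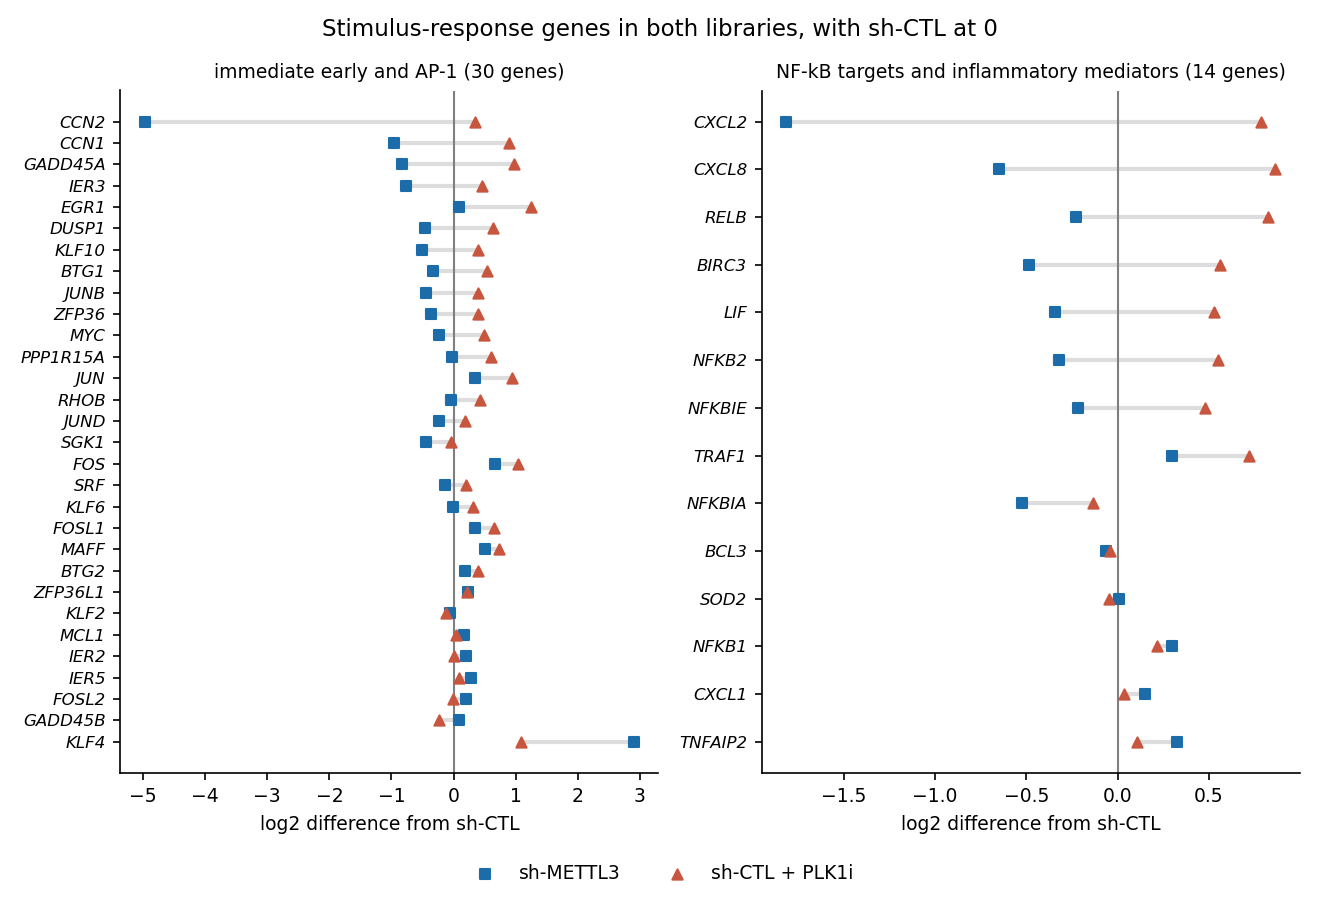
For the 30 immediate early and AP-1 genes (left) and the 14 NF-kB genes (right), the log2 difference from sh-CTL of the knockdown (squares) and of the inhibitor library (triangles) is on the x axis, with sh-CTL as the line at 0. The grey bar is the direct difference, which runs from -5.31 for CCN2 to 1.82 for KLF4 on the left and from -2.60 for CXCL2 to 0.22 for TNFAIP2 on the right.

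Promoter sequence was read for members of these lists because they were lower together. The 300 bases from 250 before to 50 after the transcription start (RefSeq, GRCh38.p14) were matched by symbol for 8516 of the 10782 genes. Shown are CCN2, CXCL8, CXCL2 and DUSP1, chosen without a rule among the called genes of these lists. Also shown are BST2, as the only called interferon-stimulated gene, and GJA1, the gene at the top of the higher side. The promoter source had no entry for CCN1 and GADD45A, and other called list genes, such as EGR1 and RELB, are not shown. Capitals mark each match, on either strand, to 6 motifs: TGANTCA (AP-1), TGACGTCA (the cyclic AMP response element), CATTCC (TEAD), GGNNTTTCC (NF-kB), GAAANNGAA (the interferon-stimulated response element, ISRE) and TCACNCCAC (SREBP). CCN2 lies at chr6:131951323-131951622 on the minus strand, CXCL8 at chr4:73740319-73740618 on the plus strand and CXCL2 at chr4:74099146-74099445 on the minus strand. DUSP1 lies at chr5:172771146-172771445 on the minus strand, BST2 at chr19:17405581-17405880 on the minus strand and GJA1 at chr6:121435396-121435695 on the plus strand.
CCN2: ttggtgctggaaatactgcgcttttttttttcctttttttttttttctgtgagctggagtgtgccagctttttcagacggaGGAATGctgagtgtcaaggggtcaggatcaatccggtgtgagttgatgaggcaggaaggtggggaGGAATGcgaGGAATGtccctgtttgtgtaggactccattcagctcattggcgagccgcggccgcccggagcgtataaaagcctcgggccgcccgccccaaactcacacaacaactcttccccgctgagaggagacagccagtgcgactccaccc
CXCL8: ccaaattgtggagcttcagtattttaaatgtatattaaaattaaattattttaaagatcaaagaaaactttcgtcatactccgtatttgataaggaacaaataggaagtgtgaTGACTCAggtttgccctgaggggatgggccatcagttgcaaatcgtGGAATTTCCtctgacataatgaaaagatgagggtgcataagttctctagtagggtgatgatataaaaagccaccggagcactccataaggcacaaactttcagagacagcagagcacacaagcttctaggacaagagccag
CXCL2: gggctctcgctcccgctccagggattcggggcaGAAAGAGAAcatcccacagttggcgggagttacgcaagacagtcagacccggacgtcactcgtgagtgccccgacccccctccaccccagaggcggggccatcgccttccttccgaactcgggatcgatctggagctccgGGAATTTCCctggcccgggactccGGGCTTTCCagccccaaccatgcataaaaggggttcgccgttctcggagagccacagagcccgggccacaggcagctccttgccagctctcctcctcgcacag
DUSP1: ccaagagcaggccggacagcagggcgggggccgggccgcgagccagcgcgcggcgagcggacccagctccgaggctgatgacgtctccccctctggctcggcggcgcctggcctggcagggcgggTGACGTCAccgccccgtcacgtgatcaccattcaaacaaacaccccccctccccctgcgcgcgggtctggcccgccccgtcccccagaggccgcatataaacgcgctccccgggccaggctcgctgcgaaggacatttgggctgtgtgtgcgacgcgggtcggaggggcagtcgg
BST2: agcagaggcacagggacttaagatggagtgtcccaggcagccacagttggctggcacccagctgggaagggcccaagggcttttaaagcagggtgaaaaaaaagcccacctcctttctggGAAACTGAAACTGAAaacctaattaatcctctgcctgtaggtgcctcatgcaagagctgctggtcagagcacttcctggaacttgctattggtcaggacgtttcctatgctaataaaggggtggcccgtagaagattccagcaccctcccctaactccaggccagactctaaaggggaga
GJA1: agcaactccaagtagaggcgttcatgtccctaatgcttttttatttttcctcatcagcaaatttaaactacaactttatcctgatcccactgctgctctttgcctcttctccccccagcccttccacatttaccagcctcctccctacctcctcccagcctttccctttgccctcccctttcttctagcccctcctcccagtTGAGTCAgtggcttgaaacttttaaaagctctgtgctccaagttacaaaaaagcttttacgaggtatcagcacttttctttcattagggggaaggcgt
The matches above are 3 TEAD matches in CCN2, 1 AP-1 and 1 NF-kB match in CXCL8, 2 NF-kB and 1 ISRE match in CXCL2, 1 cyclic AMP response element in DUSP1, 2 overlapping ISRE matches in BST2 and 1 AP-1 match in GJA1. No other 2 of these matches overlap.

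Over all genes with a promoter, 14% held the TEAD letters, 7.76% the AP-1 letters, 6.26% the NF-kB letters, 8.29% the ISRE letters, 1.98% the cyclic AMP response element and 1.15% the SREBP letters. Among the genes compared, the shares were 10.4% for TEAD, 3.93% for AP-1 and 6.74% for NF-kB. They were 6.19% for the ISRE, 3.56% for the cyclic AMP response element and 1.06% for SREBP. Among the 111 genes called lower in sh-METTL3 that had a promoter, 18 (16.2%) held TEAD letters, 7 (6.31%) AP-1 letters and 10 (9.01%) NF-kB letters. Among the 90 called higher, the counts were 10 (11.1%), 4 (4.44%) and 4 (4.44%). The AP-1 letters stand in CXCL8 on the lower side and in GJA1 on the higher side. These counts describe the letters in the window and were not tested.

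ERK pathway targets divided. Of 25 genes compared in the list of MAPK feedback regulators and ETS targets, 17 were lower and 8 higher in sh-METTL3, the median was -0.15, and 4 were called lower, beside 1.47% of all genes. These were MMP1, IER3, UPP1 and HBEGF. HBEGF, an EGF receptor ligand, stood at 573 in the control, 504 in the knockdown and 1080 in the inhibitor library (-1.10), so the inhibitor library stood apart. UPP1, a uridine phosphorylase, stood at 709, 338 and 810 (-1.26) and it was the knockdown that stood apart. The ephrin receptor EPHA4 stood highest in the list, at 5244, 7996 and 5121 (0.64). The feedback inhibitor SPRY1 was also higher in the knockdown than in the inhibitor library, at 2635, 2502 and 1628 (0.62), with the inhibitor library below the control. DUSP5 was -0.62 and the ETS factors ETV4 and ETV5 were -0.15 and -0.39. CCND1, which encodes cyclin D1, was -0.01.

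Genes of the TGF-beta pathway included the receptor TGFBR2, whose direct difference was among the largest, and others nearer the 2-fold limit. Of 26 genes compared, 5 were called lower in sh-METTL3 and 1 higher, beside 1.47% and 1.18% of all genes, and the median was -0.14. Beside the receptor TGFBR2, the ligand TGFB3 stood at 254, 243 and 501 (-1.04), with only the inhibitor library apart. The ligand-anchoring LTBP2 stood at 2547, 1362 and 3116 (-1.19). The SMAD co-repressor SKIL stood at 905, 308 and 955 (-1.63) and the SMAD target ID2 at 2677, 819 and 1852 (-1.18). The co-receptor TGFBR3 was higher in the knockdown, at 1214, 2174 and 922 (1.24). The signalling receptor TGFBR1 (0.25) and the transducers SMAD2 (-0.28), SMAD3 (0.45) and SMAD4 (-0.18) did not reach 2-fold.

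Among matrix proteases and their inhibitors, 19 of 41 listed genes were compared, and the median was 0.02. MMP1 was among those called lower and SERPINE2 was called higher. The membrane collagenase MMP14 stood at 227, 346 and 187 (0.88). The urokinase gene PLAU (-0.10), its receptor PLAUR (-0.12) and the inhibitor TIMP1 (0.12) were close to level, and 3 of the 19 genes were called, beside 2.64% of all genes.

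Junction, adhesion and matrix genes had a median of 0.00 over 25 genes, with 3 called higher in sh-METTL3 and none lower, beside 1.18% and 1.47% of all genes; the direction of so small a median turned under 4 of 10 other filters, offsets and scalings, down to -0.05. GJB2, which encodes connexin 26, stood at 300, 862 and 329 (1.39), with the knockdown highest as for GJA1. The laminin-binding integrin pair ITGA6 and ITGB4 were both higher, ITGA6 at 1228, 2380 and 1277 (0.90) and ITGB4 at 3265, 7386 and 2856 (1.37). At the other end, the neural adhesion gene L1CAM stood at 526, 232 and 457 (-0.98) and the collagen VI chain COL6A3 at 15271, 6896 and 13442 (-0.96). The integrin subunits ITGB1 (-0.10), ITGAV (0.22) and ITGA5 (-0.09) were near 0.

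Receptor tyrosine kinases and their ligands held 28 genes compared, with a median of -0.12, 1 called lower (HBEGF) and 1 called higher (PDGFB), which for so few genes is near the 1.47% and 1.18% of all genes. The receptor FGFR4 stood at 360, 231 and 440 (-0.93). The EGF family ligand BTC stood at 364, 704 and 403 (0.80). EGFR itself, at 9653, 7617 and 8260, differed by -0.12, and ERBB2 by -0.06.

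Interferon-stimulated genes leaned the other way. Of 54 listed genes, 44 had a row and 31 were compared, of which 20 were higher and 11 lower in sh-METTL3, with a median of 0.29. At least 0.5 higher were 10 of the 31 (32.3%), beside 6.05% of all genes, and none reached 2-fold on that side. At least 0.5 lower were 3 (9.68%), beside 6.73% of all genes. PARP14, an ADP-ribosyltransferase, stood at 440 in the control, 766 in the knockdown and 414 in the inhibitor library (0.88). The class I molecule HLA-B stood at 710, 1553 and 903 (0.78) and the peptide transporter TAP1 at 970, 1769 and 1049 (0.75). HLA-B reads can be split with the other class I genes. IFIT3, an antiviral RNA-binding protein, was lower in the knockdown, at 800, 1094 and 1583 (-0.53), though both libraries were above the control. BST2, the virus-tethering protein tetherin, stood at 345, 42.6 and 296 (-2.77, -3.28 to -2.35), the only called gene of the list, and the next lowest was PARP12 at 427, 305 and 458 (-0.58). With a mean of at least 500 required in place of 200, the list median was 0.07.

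The cell cycle lists, which hold the class in which the inhibitor's target acts, had no called gene. The cyclin-dependent kinase inhibitor CDKN1A and the growth arrest gene GADD45A, both called lower, stand in other lists. None of the 40 mitotic kinases and G2/M regulators, 47 S phase and replication genes or 24 damage and replication stress genes was called in either direction, beside 2.64% of all genes compared, a share that amounts to few genes in lists of this size. The medians were 0.00, 0.07 and 0.07. After PLK1, the lowest mitotic gene was BORA, an activator of Aurora A, at 1363 in the control, 1400 in the knockdown and 1811 in the inhibitor library (-0.37). The highest was the topoisomerase TOP2A, at 43126, 50297 and 29422 (0.77), followed by CDK1, the kinase of mitotic entry, at 6487, 7165 and 4781 (0.58). For TOP2A and CDK1 the inhibitor library was the low one. Cyclin B1, encoded by CCNB1, was nearly level at 20692, 21261 and 22525 (-0.08), and the proliferation marker MKI67 at 57957, 56127 and 52765 (0.09). Among the replication genes MCM3 (0.57) was the highest and MCM10 (-0.53) the lowest. Among the damage genes the histone variant H2AX (0.56) and the kinase ATM (0.41) were the highest and the ribonucleotide reductase subunit RRM2 (-0.42) and the clamp subunit RAD9A (-0.29) the lowest. The tubulin genes ran from TUBA1A at 5119, 3179 and 5496 (-0.79) and TUBD1 (-0.41) up to TUBB (0.45) and TUBA1C at 47620, 50381 and 35284 (0.51), with a median of -0.07 over 14 genes and none called.

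Targets of p53 gave a median of -0.11 over 25 genes, with CDKN1A and GADD45A called lower in sh-METTL3, beside 1.47% of all genes. PMAIP1, the BH3-only protein NOXA, was at 367, 283 and 477 (-0.75), MDM2 was -0.46, and AEN (0.39) and CCNG1 (0.42) were the highest. MIAPaCa-2 is known to carry mutant p53, and the list holds genes that other factors also control.

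In the integrated stress and unfolded protein response list of 30 genes, the median was -0.23, 6 were at least 0.5 lower in sh-METTL3 and none at least 0.5 higher, beside 6.73% and 6.05% of all genes. DDIT3, the transcription factor CHOP, stood at 267, 259 and 536 (-1.05, -1.26 to -0.84), with only the inhibitor library apart. The cystine transporter SLC7A11 stood at 342, 235 and 453 (-0.94) and the pseudokinase TRIB3 at 1303, 985 and 1582 (-0.68). At the other end stood the chaperone CALR at 24910, 31429 and 22547 (0.48) and the serine synthesis enzyme PSAT1 at 7347, 7746 and 5617 (0.46).

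The MYC network and ribosome biogenesis genes were lower in sh-METTL3 than in the inhibitor library in 33 of 40 cases, with a median of -0.19. None of them reached 2-fold, beside 2.64% of all genes. MYC was the lowest of them, followed by the helicase DDX10 at 4005, 3445 and 5412 (-0.65) and by ODC1, the first enzyme of polyamine synthesis, at 16030, 13030 and 19603 (-0.59). NOP58, a core protein of small nucleolar ribonucleoproteins, stood at 8516, 7827 and 10568 (-0.43). The MYC antagonists MXD3 (0.86) and MXD4 (0.67) were the 2 highest, at 557, 709 and 391 for MXD3 and 574, 771 and 485 for MXD4. Against the shared control the median was -0.05 for the knockdown and 0.12 for the inhibitor library. MXD3 overlaps RAB24 on its strand.

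**Figure D5:**
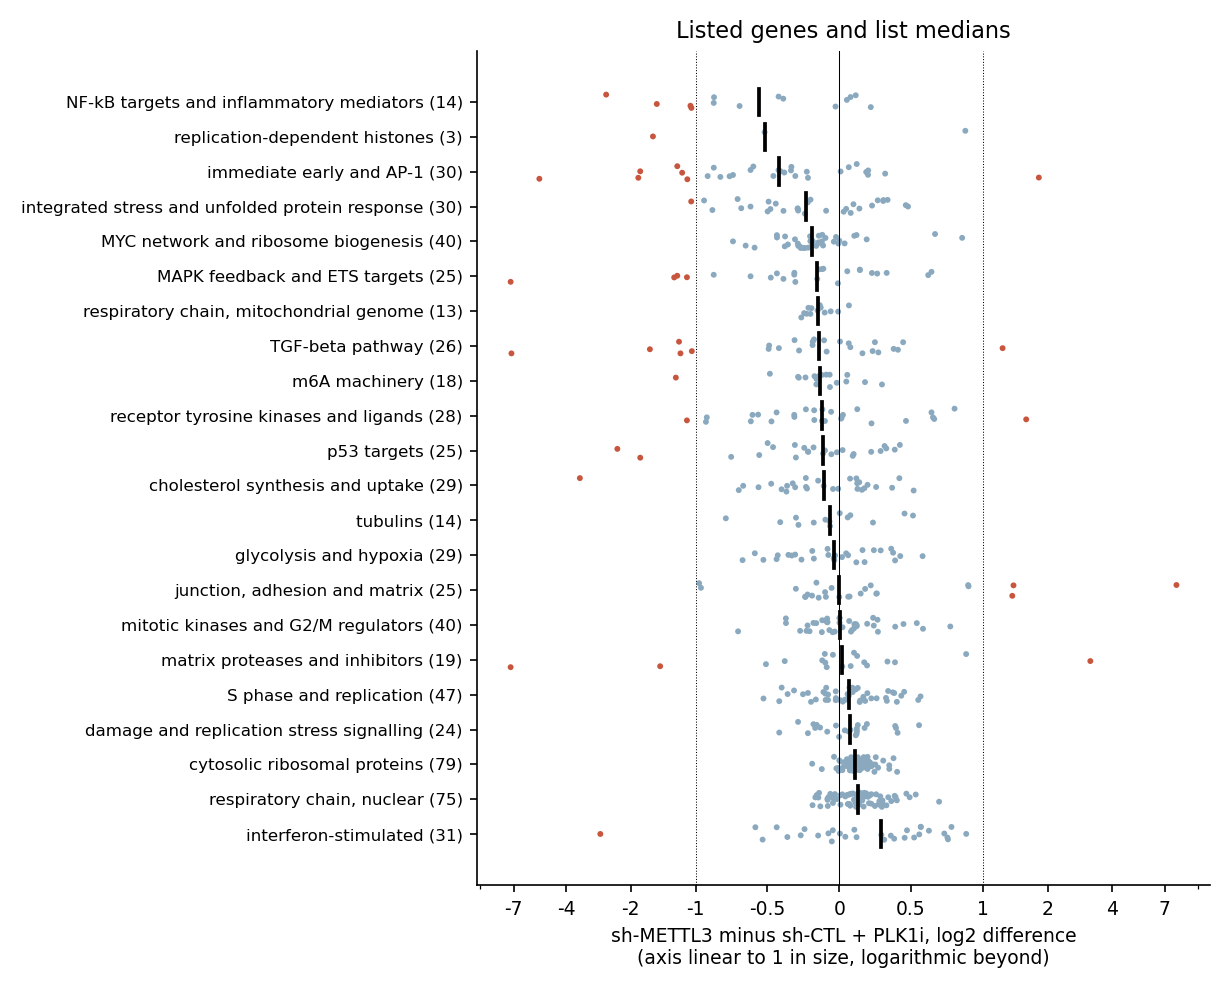
Each point is a listed gene that was compared, with its direct log2 difference on the x axis (linear to 1 in size and logarithmic beyond it), red where called; black bars are list medians and the number of genes compared is in brackets. The medians run from -0.56 for NF-kB targets to 0.29 for interferon-stimulated genes, and the called genes fall mainly in the stimulus-response, TGF-beta and matrix lists, with none in the cell cycle, ribosome or respiratory lists.

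Genes of protein synthesis and respiration differed little but mostly in one direction. Cytosolic ribosomal protein genes were higher in sh-METTL3 in 72 of 79 cases with a median of 0.11, ranging from -0.19 for RPS15A and -0.12 for RPL17 to 0.40 for RPS28. Nuclear genes of the respiratory chain were higher in 59 of 75 cases with a median of 0.13, led by NDUFA13 at 1627, 2529 and 1561 (0.70), which overlaps YJEFN3, and by NDUFS7 (0.53), with ATP5F1C (-0.19) and NDUFA4 (-0.17) the lowest. The 13 protein genes of the mitochondrial genome were lower in 12 cases with a median of -0.15, from -0.26 for MT-CO2 and -0.24 for MT-ATP6 to -0.01 for MT-ND6 and 0.07 for MT-ND5. The direction for MT-ND6 turned under some of the other scalings, and MT-ATP6 shares bases with its neighbours in the mitochondrial genome. Reads of mitochondrial genes were 4.89% of the total in the control, 4.80% in the knockdown and 5.55% in the inhibitor library. These medians kept their sign under all 10 other filters, offsets and scalings tried, which shifted the median of all genes by at most 0.04. The median of the mitochondrial genome genes shrank to -0.049 under quantile normalization, where MT-CO2 also stood at -0.049 and MT-ATP6 at 0.

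Glycolysis and hypoxia genes had a median of -0.03 over 29 genes, from the glucose transporter SLC2A1 at 3937, 2910 and 4641 (-0.67) to the mitophagy receptor BNIP3L at 3833, 5560 and 3717 (0.58). None was called. The lipase inhibitor ANGPTL4, a hypoxia target, stood at 746, 642 and 966 (-0.59). HIF1A stood at 18662, 13111 and 18904 (-0.53) and PKM, the pyruvate kinase, at 123244, 149539 and 111374 (0.43). Genes of cholesterol and fatty acid synthesis had a median of -0.11 over 29 genes, and ELOVL6 alone was called, beside 2.64% of all genes. The sterol synthesis enzymes MSMO1 (-0.70), CYP51A1 (-0.67) and SC5D (-0.56) were lower in the knockdown, whereas the regulator SREBF1 stood at 5170, 6082 and 4246 (0.52).

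Of the m6A machinery, 18 genes were compared, and only METTL3, the target of the hairpin, was called. The share over all genes, 2.64%, amounts to few genes in a list of this size. In sh-METTL3, 14 of the 18 were lower, with a median of -0.13. METTL14, the binding partner of METTL3, stood at 636, 589 and 596 (-0.02), and WTAP, the adaptor that targets the complex, at 4238, 4033 and 4387 (-0.12). The ligase CBLL1, at 1987, 1705 and 2384, was the second lowest at -0.48. Of the readers, YTHDC1 was -0.29 and YTHDC2 0.30. Of the demethylases, FTO was 0.18 and ALKBH5 -0.14. Only 3 of 59 replication-dependent histone genes passed the filter, and these were H2BC12 (-1.58), H2AC6 (-0.52) and H1-2 (0.88). Most histone transcripts have no poly(A) tail, and the libraries were made from polyadenylated RNA.

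Chromosome 7 stood apart from the other autosomes in its median difference. Its 519 genes had a median of -0.26, and 431 of them (83.0%) were lower in sh-METTL3. The medians of the other autosomes lay between -0.08 and 0.09. Of the chromosome 7 genes, 109 were at least 0.5 lower and 9 at least 0.5 higher. Chromosome 18 also held many such genes, with 27 of 147 at least 0.5 lower and 13 at least 0.5 higher. On the mitochondrial chromosome, 14 of 15 genes were lower, with a median of -0.19. Against the control, the mitochondrial median was -0.01 for the knockdown and 0.20 for the inhibitor library. Against the shared control, the chromosome 7 median was -0.26 for the knockdown and 0.00 for the inhibitor library. Called genes on this chromosome numbered 15 lower and 2 higher of the 519, beside 1.47% and 1.18% of all genes. Genes named above that lie on chromosome 7 include LINC-PINT, UPP1, CBLL1, PARP12, NDUFA4 and CLDN4 on the lower side. COL1A2, which was level, and PEG10 on the higher side lie there too. The part of the chromosome-wide difference in these genes was not tested.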

How the data were processed

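RNA from 3 MIAPaCa-2 cultures was sequenced as stranded, polyadenylated mRNA libraries. The authors deposited log2 normalized counts per gene with an offset of 4 added; the submitters' processing notes name FastQC 0.11.9, STAR 2.7.10, RSEM 1.3.3 and hg19, while the scaling method, annotation, low-count filter and strand setting are not given in the sources used here. The log2 was undone and 4 subtracted. The steps between low values, 1.17, 0.927 and 0.921 per read, gave whole reads (within 0.1) for 100% of values below 2000 reads, and depths of 37449259, 46944920 and 47727541 reads. With 1 library a side no test was possible; a gene was called at a log2 difference of 1 after adding 1 to each value, which understates differences of low genes.

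Genes averaging at least 200 over the 3 libraries were compared. Named in the text were METTL3, PLK1, MMP1 and MYC, the 15 largest differences in each direction among genes with a symbol, the 5 most abundant called genes in each direction, called members and the 2 highest and 2 lowest members of 22 lists, and the 5 largest on each side among genes on opposite sides of the control. Other list members and genes given for their role were chosen after their values were seen, and a few genes that the rule names are not reported here. The members and lists were chosen with earlier results of these data known. The filter, offset, scaling and threshold were varied. Gene positions are from GENCODE v44 mapped to GRCh37 and promoters from RefSeq GRCh38.p14. Calculations used Python 3.11.15, numpy 2.4.6, pandas 2.3.3, scipy 1.17.1 and matplotlib 3.10.9 and were checked on simulated data.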

Additional observations from a re-analysis of the deposited data

How the results depend on the processing

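The counts of called genes followed the filter on low values. With a mean of at least 50 in place of 200 there were 286 genes at least 2-fold higher in sh-METTL3 than in sh-CTL + PLK1i and 293 genes at least 2-fold lower in sh-METTL3 than in sh-CTL + PLK1i, with a mean of at least 500 they were 72 and 84, and with no filter they were 579 and 537. At a threshold of 0.5 they were 652 and 726, and at 2 they were 19 and 36. The control lay nearer to the inhibitor library in 486, 136 and 839 of the called genes under the 3 filters in the same order, and nearer to the knockdown in 93, 20 and 277. Of the list medians, NF-kB targets stood at -0.78 at a mean of at least 50 and with no filter and at -0.39 at 500, interferon-stimulated genes at 0.074 at 500, and immediate early genes at -0.60 with no filter. Matrix proteases turned to -0.087 at 50 and with no filter, and the histones stood at -1.58 at 500 and -0.12 with no filter. Upper-quartile scaling gave 0.14 for ribosomal proteins and -0.12 for mitochondrial genome proteins, which stood at -0.14 under total scaling and -0.049 under quantile normalization; all genes of the mitochondrial chromosome stood at -0.16, -0.18 and -0.060 under these scalings. The filters changed which genes were counted, and the cause of the shifts under other scalings was not tested. Without the genes of chromosome 7, chosen after its median was seen, 125 genes were higher and 143 lower. No paired analysis was possible because each group had 1 library, and no library could be left out for the same reason.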
